A study of Rattus norvegicus with 65 samples.

Results

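The RNA of 9 genes of the thyroid hormone axis was followed in rat hypothalamus: *Trh*, *Trhr*, *Slco1c1*, *Dio2*, *Dio3*, *Thra*, *Thrb*, *Hr* and *Klf9*. They were taken by gene symbol from a count table of 38513 genes, and all 9 were found once each and passed the filter on low counts. Between animals after Roux-en-Y gastric bypass (RYGB) and sham-operated animals, 1 of the 9 genes, *Thra*, passed the test and was lower, where 13% of all genes passed. Without 17 libraries that held more marker RNA of striatum and cortex than of hypothalamus, *Thra* no longer passed and *Klf9* did. The level of *Klf9* was then higher in RYGB, where 13.4% of all genes passed. No gene of the 9 passed in the other 7 comparisons, in each of which 0% to 0.343% of all genes passed. With so few genes passing, this says little about the 9.

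The axis starts with thyrotropin-releasing hormone, made from the *Trh* gene by neurons of the paraventricular nucleus, which drives thyrotropin release from the pituitary and through it thyroid hormone from the thyroid. Thyroxine enters the brain through carriers such as OATP1C1 (*Slco1c1*) and is turned into the active hormone T3 by the type 2 deiodinase (*Dio2*) of astrocytes and tanycytes, the glia lining the third ventricle, while the type 3 deiodinase (*Dio3*) inactivates both hormones. T3 acts through the nuclear receptors encoded by *Thra* and *Thrb*, and it holds back the *Trh* gene in paraventricular neurons. *Hr*, a corepressor of nuclear receptors, and *Klf9*, a transcription factor that also answers glucocorticoids, are T3-responsive genes of brain.

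The bases before the start of *Trh* and of *Klf9* are shown because the first opens the axis and the second is a known T3 target on which one of the results turns. The sequences are RefSeq bases upstream of the annotated transcript starts in the build GRCr8, written 5′ to 3′ on the strand of the gene, from chr4:126301763-126302012 (minus strand) and chr1:230126396-230126645 (plus strand). The letters AGGTCA, the half-site to which thyroid hormone receptors and other nuclear receptors bind, were searched on both strands in the 250 bases before each start, and a match is in capitals.
Trh: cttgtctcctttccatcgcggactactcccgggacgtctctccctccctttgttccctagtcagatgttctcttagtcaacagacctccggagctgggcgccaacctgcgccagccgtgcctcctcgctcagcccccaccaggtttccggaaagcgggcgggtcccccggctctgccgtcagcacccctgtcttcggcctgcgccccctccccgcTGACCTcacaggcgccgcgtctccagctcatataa
Klf9: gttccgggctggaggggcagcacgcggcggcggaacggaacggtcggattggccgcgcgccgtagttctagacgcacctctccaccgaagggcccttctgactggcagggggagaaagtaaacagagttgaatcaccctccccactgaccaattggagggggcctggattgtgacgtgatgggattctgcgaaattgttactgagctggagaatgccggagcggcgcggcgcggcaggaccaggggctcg
The *Trh* window held 1 match, on the strand opposite to the gene, beginning 35 bases before the start. The *Klf9* window held none, and neither did those of *Dio2*, *Dio3*, *Thra* and *Thrb*. Of all 33469 windows of this length, 4707 (14.1%) held the letters. A match is a description of the sequence, and no binding was measured. For *Trhr*, *Slco1c1* and *Hr* no window was used here.

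RNA of the hypothalamus was sequenced in 65 male Wistar rats, 1 library per animal. Hypothalami were collected after 4 weeks of treatment and a fast of 10 h. The groups that the study's methods name were rats aged 9 to 10 weeks at the start, which were then made obese by 6 weeks of high-fat diet. They had undergone RYGB (labelled Bypass, n = 14), a sham operation (n = 11), or food restriction that matched their body weight to the RYGB group (BWM, n = 7). Others received saline (n = 8), liraglutide, an agonist of the GLP-1 receptor (0.4 mg/kg/day, n = 5), the gut peptide PYY3-36 from an osmotic minipump (0.1 mg/kg/day, n = 4), or both hormones together (n = 10). All of these but BWM had a free choice of high-fat and low-fat diet. The last 6 animals carried only the label Lean. The study also mentions a group on low-fat diet only, and whether Lean is that group was not settled here. The animals were run in 2 periods, batch A with 37 and batch B with 28. BWM and lean animals were in batch A only, and animals on a single hormone were in batch B only. The other groups were divided between batch A and batch B as 11 and 3 for RYGB, 5 and 6 for sham, 3 and 5 for saline, and 5 and 5 for PYY3-36 + liraglutide.

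The counts on genes ran from 20041010 to 36539941 per library. The hypothalami were taken from the frozen brains under a microscope, and the libraries differed in the level of marker RNA of striatum and cortex. In 17 libraries the markers of striatal projection neurons and cortical neurons summed to more CPM (counts scaled to the size of the library) than those of hypothalamic and paraventricular neurons, and the ratio ran from 1.17 to 19.3 there and from 0.0609 to 0.976 in the other 48. None of the 9 genes is in those marker lists. The striatal and cortical markers alone summed to 665 to 5784 CPM in the 17 libraries and to 425 to 1959 CPM in the other 48. The ratio, not the level of these markers alone, sets the 17 apart. Sham replicate 1, which is among them, had 167 CPM of striatal markers and 939 CPM of habenula and thalamus markers. The 17 came from 4 of 11 sham, 1 of 14 RYGB, 1 of 7 BWM, 3 of 6 lean, 3 of 8 saline, 2 of 5 liraglutide, 1 of 4 PYY3-36 and 2 of 10 PYY3-36 + liraglutide animals. One further library, replicate 5 of BWM, held 78079 CPM of anterior pituitary markers. In bulk tissue, fewer cells of a type and less RNA per cell cannot be told apart. Results are given with all 65 libraries and, where the call differed, without the 17.

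Levels are given as CPM after scaling by edgeR's TMM factors. Per kilobase of exon, which allows genes to be compared, the median level over 65 animals was highest for *Thra*, at 119 CPM per kb, followed by *Trh* at 62.4, *Slco1c1* at 39.1, *Klf9* at 12.8 and *Hr* at 7.31. Below these were *Thrb* at 4.0, *Trhr* at 3.39, *Dio2* at 2.45 and *Dio3* at 0.283 CPM per kb. The ranges over animals overlapped for every pair of neighbours in this order. The genes were measured in the same animals and were not compared within animals, so the overlap does not show whether neighbours differ. The range of *Trh*, 0.864 to 185 CPM per kb, took in the median of every other gene but *Dio3*. The genes differed in their spread between animals. In CPM, the highest animal was 214-fold above the lowest for *Trh*, 12.8-fold for *Trhr* and 10.1-fold for *Klf9*, against 2.92-fold for *Thra*, 2.73-fold for *Slco1c1* and 3.20-fold for *Hr*.

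**Figure D1:**
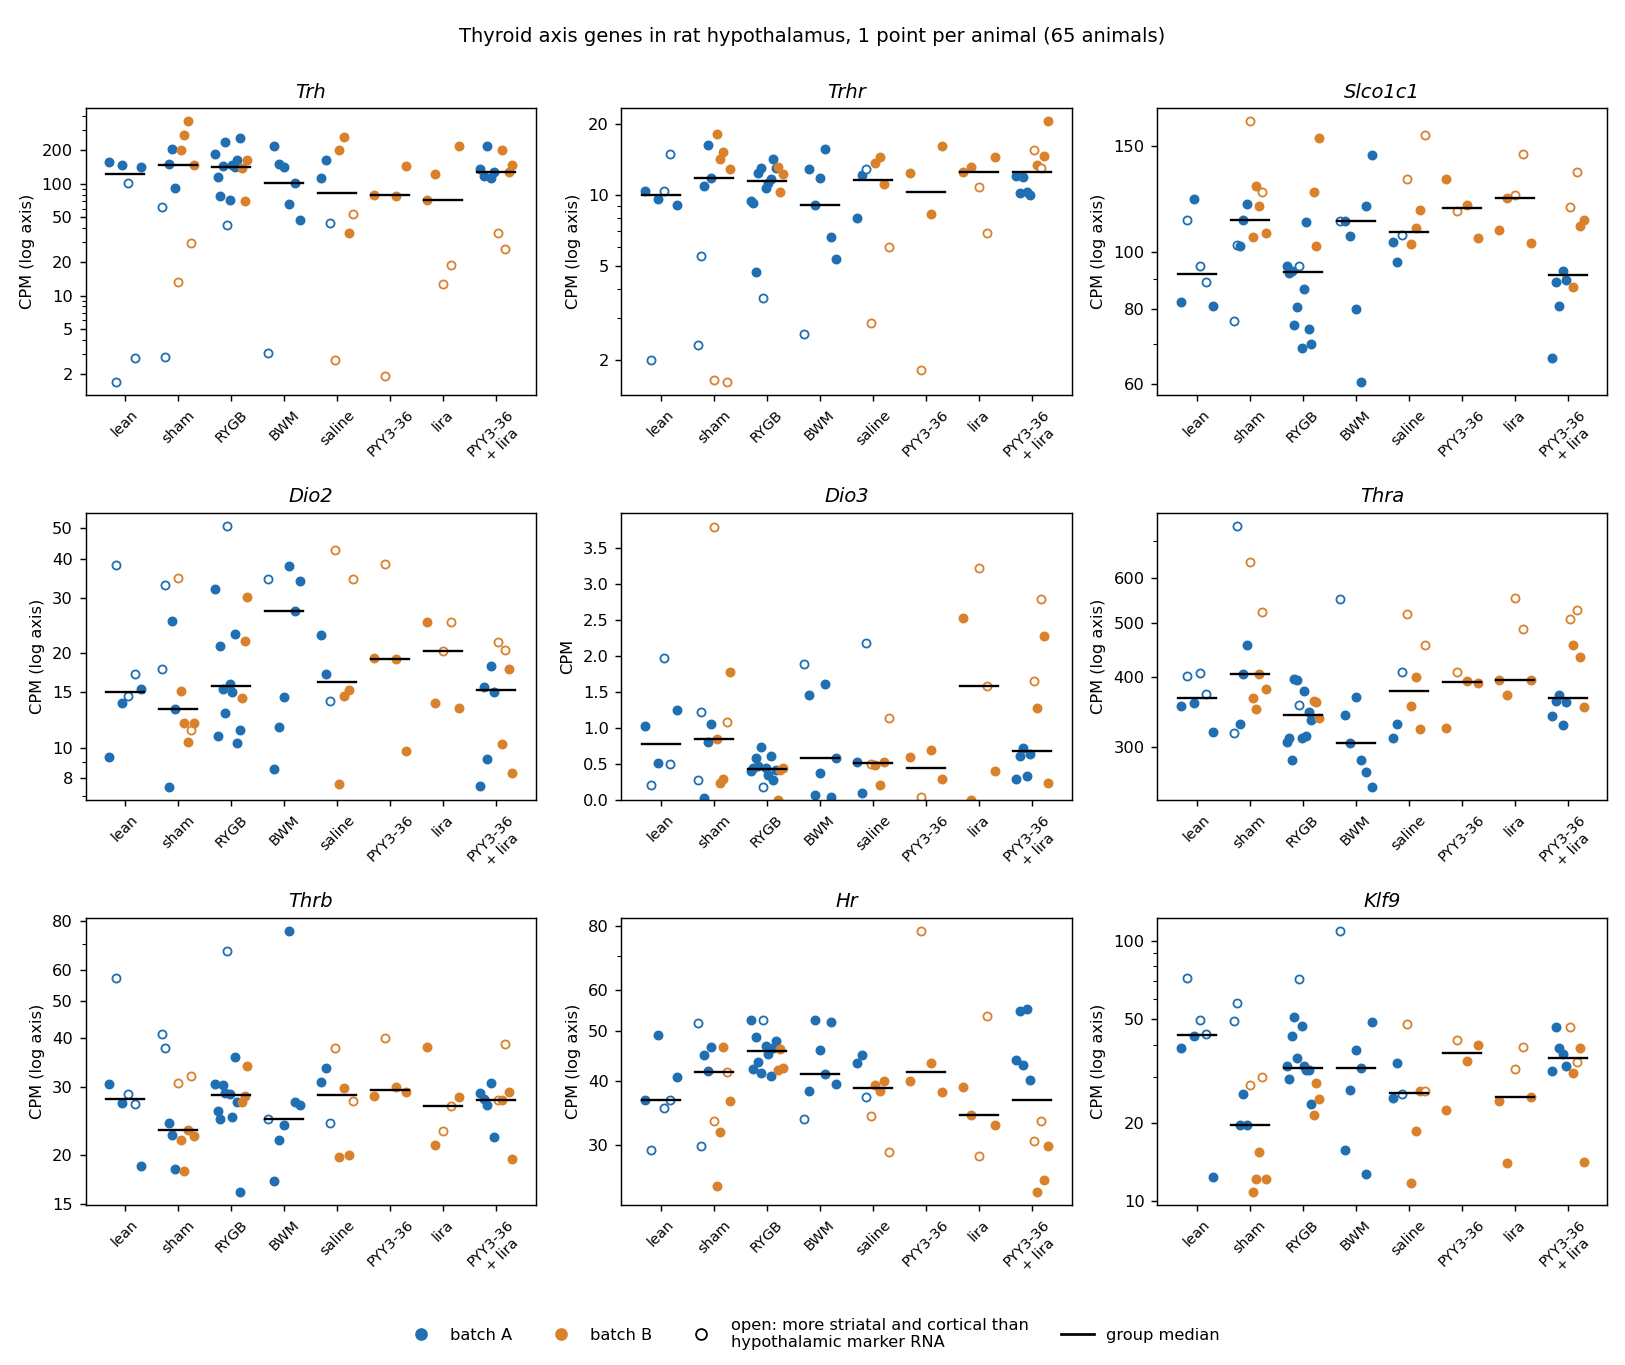
Level of each of the 9 genes (CPM, on a log axis except for Dio3) in each of 65 animals by group, with batch A in blue and batch B in orange, open circles for the 17 libraries with more striatal and cortical than hypothalamic marker RNA, and a line at each group's median. Trh spans 1.68 to 361 CPM, with low values mostly in open circles, whereas Thra and Slco1c1 stay within a few-fold.

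*Trh* (Rnor_6.0, chr4:124110716-124113242, minus strand) varied more between animals of 1 group than between groups. In RYGB it ran from 42.8 to 256 CPM with a median of 143 in batch A (n = 11), and the 3 animals of batch B had 69.9, 137 and 164 CPM. In sham it ran from 2.81 to 204 CPM with a median of 90.6 in batch A (n = 5) and from 13.2 to 361 with a median of 172 in batch B (n = 6). The groups overlapped in both batches, and the log2 fold change of RYGB vs. sham was 0.03 (SE 0.61, 95% CI -1.19 to 1.25, edgeR adjusted p = 0.98). The interval was as wide in the other comparisons, with log2 fold changes from -0.56 in lean vs. sham to 0.41 in RYGB vs. BWM. A change of *Trh* inside these intervals was not detectable with these numbers of animals.

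The level of *Trh* followed the paraventricular markers of the same library. After the mean of each group and batch was taken off, log2 *Trh* was set against the mean log2 level of 7 paraventricular markers. Their Pearson's r was 0.90 over 65 animals, and both values of an animal share library and tissue piece. The 3 genes most alike by the same measure were *Gal* (r = 0.91), *Cbln1* (0.90) and *Gpx3* (0.90). In the 17 libraries set apart by the marker ratio *Trh* ran from 1.68 to 101 CPM with a median of 18.7. In the other 48 it ran from 36 to 361 with a median of 144. The part of these markers in single comparisons was not tested other than by leaving the 17 libraries out. Without them the log2 fold change of *Trh* in RYGB vs. sham was -0.38 (SE 0.31, 95% CI -1.01 to 0.24, edgeR adjusted p = 0.424).

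**Figure D2:**
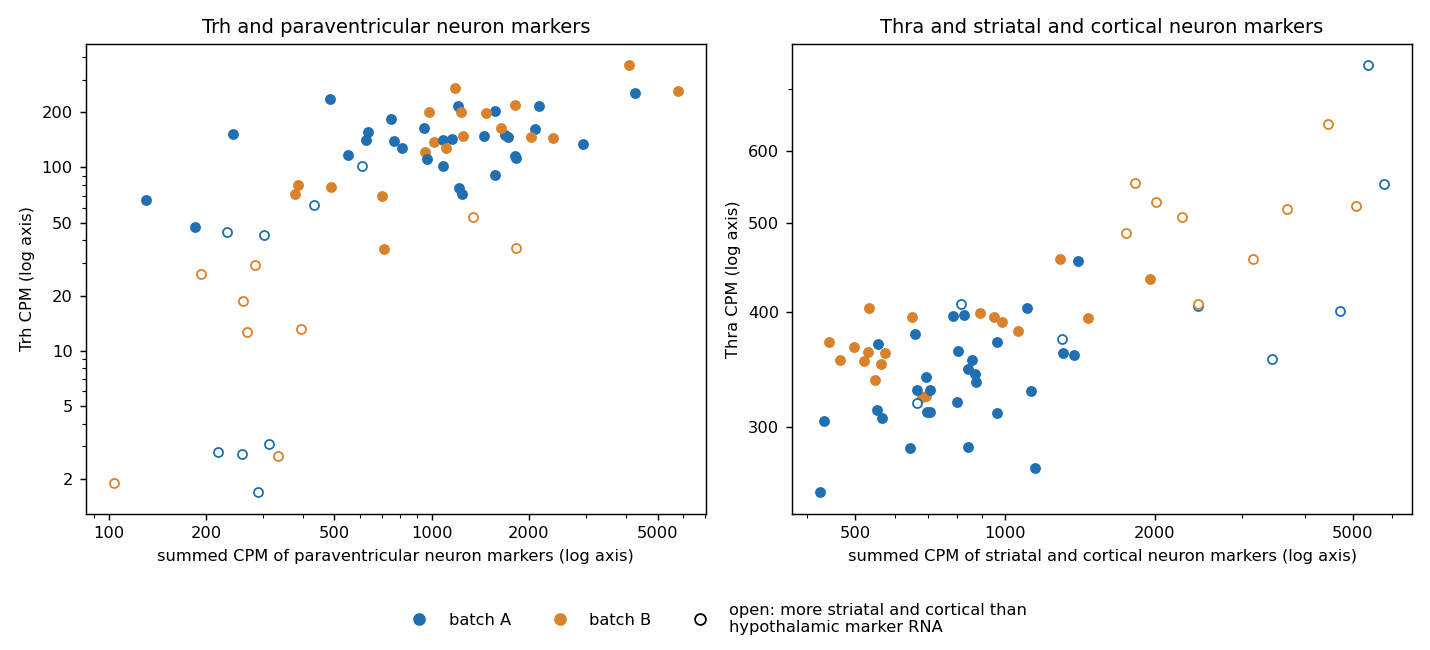
Left, Trh against the summed paraventricular markers, and right, Thra against the summed striatal and cortical markers, both in CPM on log axes, 1 point per animal (65 animals, batch A blue, batch B orange, open circles for the 17 libraries that stand apart). Trh rises with the paraventricular markers, from 1.68 to 361 CPM, and the highest Thra values, up to 743 CPM, lie in open circles.

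*Trhr* (chr7:83113641-83153520, plus strand), the receptor through which TRH acts, ran from 1.61 to 20.5 CPM with a median of 11.7. It was called in no comparison, with log2 fold changes from -0.15 in PYY3-36 vs. saline to 0.38 (SE 0.36) in PYY3-36 + liraglutide vs. saline. Like *Trh*, it was lower in the 17 libraries, with a median of 5.52 CPM against 12.1 in the other 48. *Trh* and *Trhr* had an r of 0.70 with each other, and the genes most like *Trhr* were *Mrap2* (0.89), *Alg2* (0.87) and *Tmem130* (0.87).

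*Slco1c1* (chr4:175729709-175776749, plus strand), the thyroxine carrier of brain capillaries and glia, was among the steadiest of the 9 genes, with a median of 106.3 CPM and a range of 60.4 to 165. It was higher in batch B than in batch A by 0.40 on the log2 scale (SE 0.08, edgeR adjusted p = 4.19e-05). *Hr* and *Klf9* were lower in batch B, so 3 of the 9 genes differed between the periods, where 40.7% of all genes did. Groups were therefore compared with batch in the model.

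In batch A the 11 RYGB animals had between 68.9 and 112 CPM of *Slco1c1* with a median of 86.6, the 7 BWM animals between 60.4 and 145 with a median of 113, and the 5 sham animals between 76.5 and 120 with a median of 102. All 11 RYGB animals were below the BWM median, and 10 of 11 were below the sham median, but the ranges overlapped. The log2 fold change was -0.26 (SE 0.11, 95% CI -0.48 to -0.03) in RYGB vs. BWM and -0.16 (SE 0.10) in RYGB vs. sham, and neither passed (edgeR adjusted p = 0.344 and 0.273). In batch A the 5 animals on PYY3-36 + liraglutide, at 66.3 to 92.9 CPM, were all below the 3 saline animals at 96.0, 104 and 107 CPM. The same held for 1.56% of all genes in that batch, where 0% were called. In batch B the same groups overlapped, and over both batches the log2 fold change was -0.19 (SE 0.12, edgeR adjusted p = 0.9998). The genes most like *Slco1c1* were *Fgfrl1* (r = 0.68), *Arhgef19* (0.63) and *Gldc* (0.60).

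*Dio2* (chr6:114475156-114489443, minus strand) ran from 7.48 to 50.8 CPM with a median of 15.4. In RYGB vs. sham its log2 fold change was 0.24 (SE 0.29), in BWM vs. sham 0.50 (SE 0.35), and in PYY3-36 + liraglutide vs. saline -0.53 (SE 0.33, 95% CI -1.19 to 0.12). None passed the test, and each interval includes both a fall and a rise. Its median was 25.1 CPM in the 17 libraries against 14.8 in the others. *Dio2* went against *Trh* (r = -0.65) and with *Thrb* (0.64), and the genes most like it were *Oaf* (0.78), *Gldc* (0.75) and *Lhx2* (0.73). Its r was 0.31 with the tanycyte markers, of which *Lhx2* is one, and 0.56 with the cortical ones. *Gldc*, which encodes a mitochondrial enzyme of glycine breakdown, was among the 3 genes most like each of *Slco1c1* and *Dio2*.

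*Dio3* (chr6:134627278-134629139, plus strand) was near the limit of these data, with 0 to 79 counts per library. RYGB replicate 12 and liraglutide replicate 2 had 0 counts, which allow levels of up to 0.118 and 0.144 CPM, a limit for counting error only. The 11 RYGB animals of batch A had 0.179 to 0.742 CPM with a median of 0.441, and the 3 of batch B had 0, 0.412 and 0.451 CPM. Sham animals ran from 0.0350 to 1.22 CPM with a median of 0.801 in batch A and from 0.242 to 3.79 with a median of 0.964 in batch B. All 14 RYGB animals were below the sham median of their batch, and the ranges overlapped. The log2 fold change was -1.06 in RYGB vs. sham (SE 0.57, 95% CI -2.20 to 0.08) and -1.11 in RYGB vs. BWM (SE 0.59), with edgeR adjusted p of 0.20 and 0.424. Without the 17 libraries, where *Dio3* had a median of 1.22 CPM against 0.479 in the others, it was -0.57 (SE 0.61) in RYGB vs. sham. *Dio3* was most like *Smad3* (r = 0.68), the uncharacterised LOC102552990 (0.67) and *Wfs1* (0.66), and had an r of 0.62 with the striatal markers.

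*Thra* (chr10:86657285-86684935, plus strand), the more abundant receptor gene in brain, was lower in RYGB than in sham animals. The 11 RYGB animals of batch A ran from 285 to 398 CPM with a median of 336, and the 3 of batch B had 338, 361 and 362 CPM. The 5 sham animals of batch A had 319, 330, 404, 455 and 743 CPM, and the 6 of batch B had 351, 367, 381, 405, 522 and 642 CPM. All 14 RYGB animals were below the sham median of their batch, 5 of the 11 in batch A and 1 of the 3 in batch B were below every sham animal there, and the ranges overlapped. The log2 fold change was -0.33 (SE 0.11, 95% CI -0.56 to -0.11, edgeR adjusted p = 0.0377). This was 1 of 9 genes called, where 13% of all genes were called in this comparison and 6.53% were called as lower. It was -0.40 (SE 0.14, edgeR adjusted p = 0.0595) within batch A and -0.32 (SE 0.19, edgeR adjusted p = 0.327) within batch B, where 8.57% and 2.72% of all genes were called.

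The 3 sham animals with the highest *Thra*, replicates 2, 6 and 10, were among the 4 sham libraries set apart by the marker ratio. In the 17 such libraries *Thra* had a median of 488 CPM, against 355 CPM in the others, and its r was 0.69 with the striatal markers and -0.65 with the hypothalamic ones. Without them the log2 fold change of RYGB vs. sham was -0.14 (SE 0.07, 95% CI -0.29 to 0.01, edgeR adjusted p = 0.21). Leaving out sham replicate 2 alone gave -0.19 (edgeR adjusted p = 0.215), and the call held in 13 of 25 fits that each left out 1 animal of these groups. Against the saline animals, which had 311 to 409 CPM in batch A and 324 to 519 in batch B, RYGB had a log2 fold change of -0.11 (SE 0.12, edgeR adjusted p = 0.9999). The genes most like *Thra* were *Jph4* (r = 0.91), *Rasgef1a* (0.89) and *Psd* (0.89).

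In BWM animals *Thra* ran from 255 to 551 CPM with a median of 305, and 6 of 7 were below the batch A sham median. The log2 fold change against sham was -0.32 (SE 0.14, 95% CI -0.59 to -0.04), close to that of RYGB in size, with an edgeR adjusted p of 0.326 in a comparison in which 0 of the 9 genes and 0.320% of all genes were called. RYGB vs. sham and BWM vs. sham share their sham animals. The highest BWM animal, replicate 1, stood apart by its markers, and without it the value was -0.47 (edgeR adjusted p = 0.0459). That fit kept the sham libraries of the same kind, and it called more of all genes than the fit with 65 libraries. Without all 17 libraries the value was -0.29 (SE 0.09, 95% CI -0.48 to -0.11, edgeR adjusted p = 0.142), where 0 of the 9 genes and 0.151% of all genes were called. RYGB and BWM differed by -0.02 (SE 0.13, 95% CI -0.27 to 0.23).

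*Thrb* (chr15:8890578-9239815, minus strand) encodes the receptor isoforms tied to feedback on *Trh*. It ran from 16.1 to 75.3 CPM with a median of 27.7, and no comparison called it. The log2 fold changes were 0.18 in RYGB vs. sham (SE 0.18) and in BWM vs. sham (SE 0.22), and 0.00 (SE 0.20) in RYGB vs. BWM. The highest value belonged to BWM replicate 5, the library with pituitary markers. *Thrb* was most like *Bcar3* (r = 0.79) and LOC102547257 (0.75), and it had an r of 0.62 with the cortical markers. 

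**Figure D3:**
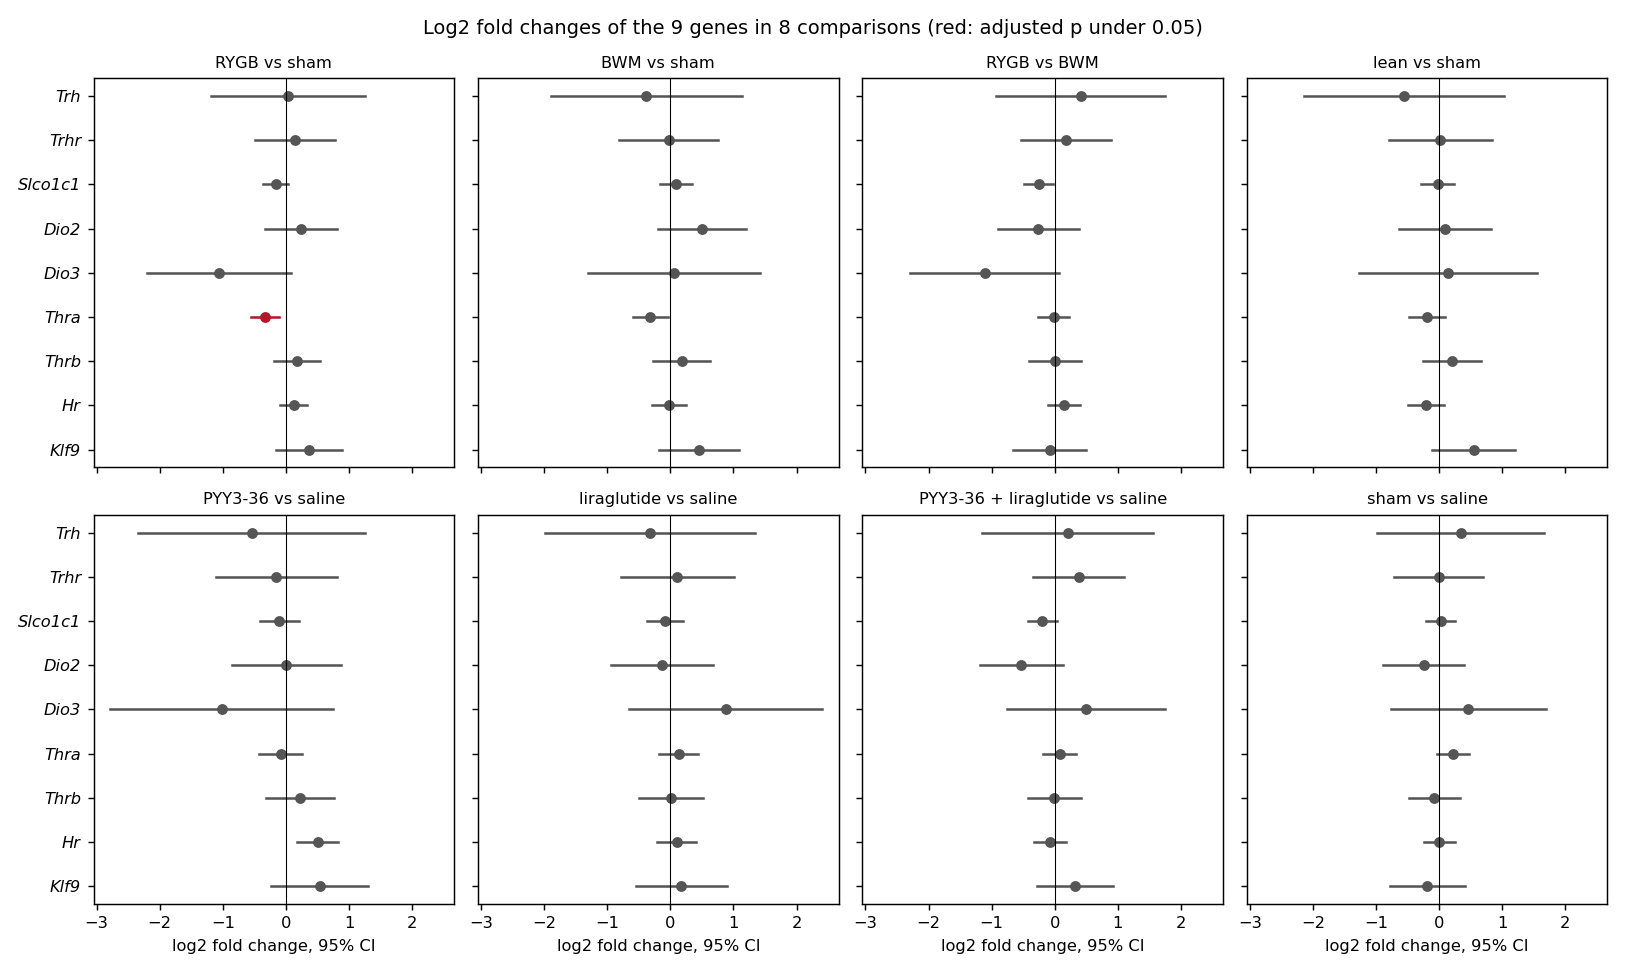
Log2 fold change (x axis) with 95% CI of the 9 genes (y axis) in 8 comparisons from edgeR's model of 65 libraries, in red where the adjusted p is under 0.05. The single red point is Thra in RYGB vs. sham, at -0.33, and the widest intervals are those of Trh and Dio3.

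*Hr* (chr15:52241801-52261276, plus strand) ran from 24.4 to 78.1 CPM with a median of 41.2. In PYY3-36 vs. saline its log2 fold change was 0.50 (SE 0.16, 95% CI 0.18 to 0.83, edgeR adjusted p = 0.652). There 0 of the 9 genes and 0% of all genes were called, with 1649 genes at an unadjusted p under 0.05 and 14 called by DESeq2 with group and batch. PYY3-36 replicate 2 had 78.1 CPM of *Hr* and the other 3 animals 38.0 to 43.3, against 29.1 to 40.0 CPM in 5 saline animals of the same batch. That library was one of the 17, and when it alone was dropped the value fell to 0.20 (edgeR adjusted p = 0.951). Against sham the value was also 0.50 (SE 0.15, edgeR adjusted p = 0.0345), where 8.35% of all genes were called. Without the 17 libraries, with *Hr* at 38.0 to 43.3 CPM in 3 PYY3-36 and 25.0 to 46.5 CPM in 4 sham animals of batch B, that value was 0.22 (SE 0.15, 95% CI -0.09 to 0.52, edgeR adjusted p = 0.389). In PYY3-36 + liraglutide animals of batch B *Hr* was 28.8 ± 3.73 CPM (SD, n = 5), and in those of batch A 47.4 ± 7.02 CPM (SD, n = 5). Over all groups the log2 fold change of *Hr* in batch B vs. batch A was -0.33 (SE 0.09, edgeR adjusted p = 0.00159), and that of *Klf9* was -0.50 (SE 0.21, edgeR adjusted p = 0.0477). It was most like *Abca2* (r = 0.78), *Tns3* (0.73) and *Arhgef10* (0.72).

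*Klf9* (chr1:240908483-240933198, plus strand) ran from 10.8 to 109 CPM with a median of 32.1. With all 65 libraries the log2 fold change in RYGB vs. sham was 0.37 (SE 0.26, 95% CI -0.15 to 0.89, edgeR adjusted p = 0.345). RYGB animals of batch A ran from 23.6 to 71.3 CPM with a median of 33.1, and those of batch B had 21.4, 24.7 and 28.3 CPM. Sham animals of batch A had 19.6, 19.6, 25.9, 49.5 and 57.7 CPM, and those of batch B 10.8, 12.1, 12.2, 15.5, 27.9 and 29.9 CPM. In each batch the highest 2 sham values came from libraries among the 17 set apart by the marker ratio. The median of *Klf9* was 44.0 CPM in the 17 such libraries and 28.9 CPM in the others, and its r was 0.51 with the striatal markers and -0.66 with the hypothalamic ones.

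Without those libraries *Klf9* was higher in RYGB than in sham animals with batch in the model. In batch A its level was 36 ± 8.49 CPM (SD, n = 10) against 21.7 ± 3.64 CPM (SD, n = 3), and in batch B 24.8 ± 3.49 CPM (SD, n = 3) against 12.7 ± 2.0 CPM (SD, n = 4). The log2 fold change was 0.85 (SE 0.22, 95% CI 0.40 to 1.31, edgeR adjusted p = 0.0116). This was again 1 of 9 genes called, where 13.4% of all genes were called, and it was chosen for description after the libraries had been left out. *Klf9* passed in 20 of 20 fits that each left out 1 more animal of both groups, with log2 fold changes from 0.81 to 0.95. Within batch B the 3 RYGB animals, at 21.4 to 28.3 CPM, did not overlap the 4 sham animals, at 10.8 to 15.5 CPM, as was so for 22.5% of all genes. With all 6 sham animals of that batch the groups overlapped. The adjusted p did not pass within either batch, with log2 fold changes of 0.74 in A (edgeR adjusted p = 0.126) and 0.98 in B (edgeR adjusted p = 0.177), where 9.49% and 0.0447% of all genes were called.

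Other measures of the libraries also differed between these groups, not all of them in the same direction in both batches. Mitochondrial rRNA and tRNA, the genes of that genome in the table, made up 0.551 to 1.91% of counts in the 13 RYGB libraries kept, with a median of 0.848%, and 1.20 to 2.24% in the 7 sham libraries, with a median of 1.82%. The median was lower in RYGB in both batches, at 0.841% against 1.82% in A and 0.984% against 1.90% in B. The summed markers of meningeal fibroblasts ran from 123 to 3843 CPM in RYGB against 104 to 137 CPM in sham in batch A, and from 196 to 238 CPM against 188 to 1271 CPM in batch B. Their median was higher in RYGB in batch A, at 716 against 131 CPM, and lower in batch B, at 205 against 234 CPM. The part of these measures in the result was not tested.

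The value of *Klf9* in RYGB was not the same against sham and against saline. In the same 48 libraries the saline animals had 24.9 and 33.9 CPM in batch A and 11.8, 18.6 and 26.6 CPM in batch B, and the BWM animals, all in batch A, 29.2 ± 13.8 CPM (SD, n = 6). Hypothalamic neuron markers were at 1278 and 1310 CPM in these saline libraries in batch A, and at 191, 196 and 230 CPM in batch B. In batch B they were at 395 to 2890 CPM in sham and 1057 to 2429 CPM in RYGB. Saline replicates 5 and 7, of batch B, also held 447 and 868 CPM of habenula and thalamus markers. The part of these markers in the comparison with saline was not tested. RYGB vs. saline had a log2 fold change of 0.33 (SE 0.25, 95% CI -0.17 to 0.83, edgeR adjusted p = 0.9997) in a comparison that called 0% of all genes, and sham vs. saline of -0.52 (edgeR adjusted p = 0.354). Set against the same sham animals, PYY3-36 had a value of 1.27 (edgeR adjusted p = 0.0261) and PYY3-36 + liraglutide of 0.95 (edgeR adjusted p = 0.0104), where 3.33% and 12.1% of all genes were called. BWM, lean and liraglutide had values of 0.54, 0.65 and 0.66 against sham and did not pass. All of these contrasts share the 7 sham animals. The genes most like *Klf9* over 65 animals were *Zfp365* (r = 0.91), *Slk* (0.90) and *Camk1d* (0.89).

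**Figure D4:**
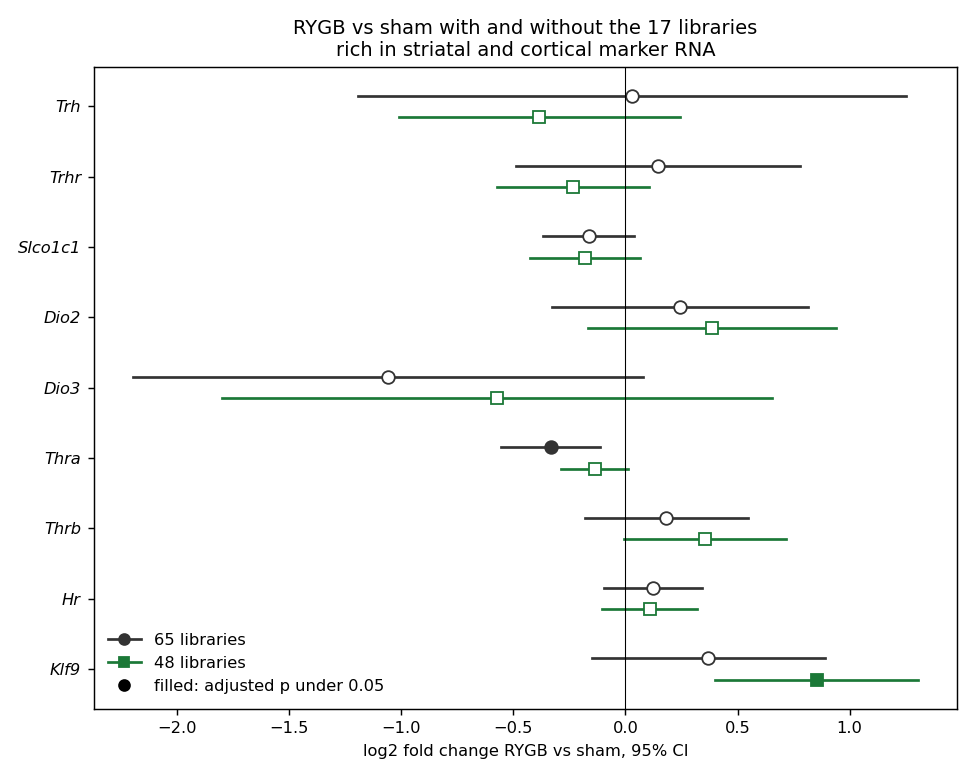
Log2 fold change of RYGB vs. sham (x axis, 95% CI) of the 9 genes with 65 libraries (dark circles) and without the 17 libraries with more striatal and cortical than hypothalamic marker RNA (green squares), filled where the adjusted p is under 0.05. Thra is filled with 65 libraries only (-0.33 against -0.14) and Klf9 with 48 only (0.37 against 0.85).

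By edgeR's test the other comparisons called 0 of the 9 genes, with 1 of the 9 at an unadjusted p under 0.05 in each of BWM vs. sham, RYGB vs. BWM and PYY3-36 vs. saline and 0 in the rest. The share of all genes called was 0.343% in RYGB vs. BWM, 0.00457% in PYY3-36 + liraglutide vs. saline and 0.0137% in sham vs. saline. It was 0% in lean vs. sham, with 2674 genes at an unadjusted p under 0.05 and 30 called by DESeq2 with group and batch. It was also 0% in liraglutide vs. saline, with 456 genes at an unadjusted p under 0.05 and 14 called by DESeq2. With no gene called at all, these comparisons say little about the 9. For liraglutide the log2 fold changes ran from -0.33 for *Trh* (SE 0.83) to 0.88 for *Dio3* (SE 0.77), and for lean from -0.56 for *Trh* (SE 0.79) to 0.55 for *Klf9* (SE 0.33). In 27 tests by edgeR of whether a comparison of these genes differed between the batches, 0 passed and 1 had an unadjusted p under 0.05.

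Around the 9 genes, lists of further genes of thyroid hormone processing and action were tested in RYGB vs. sham. Of 14 receptor partners, 4 were higher and 2 lower, where 13% of all genes were called, 6.52% as higher and 6.53% as lower. *Rxra*, a partner with which thyroid hormone receptors form dimers on DNA, ran from 2.15 to 5.50 CPM with a median of 4.43 in 11 sham animals and from 2.98 to 13.3 with a median of 10.1 in 14 RYGB animals. Its log2 fold change was 1.16 (SE 0.21, edgeR adjusted p = 0.000913). The coactivators *Ncoa2* and *Ncoa3* were higher by 0.79 (SE 0.17, edgeR adjusted p = 0.00329) and 0.55 (SE 0.12, edgeR adjusted p = 0.00324), as was 1 other gene. *Hdac3*, the deacetylase of the corepressor complex, and *Rxrb*, a second dimer partner, were lower, at -0.20 (edgeR adjusted p = 0.0227) and -0.24 (edgeR adjusted p = 0.0404). The median over the 14 was 0.11, beside -0.02 over all genes.

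Of 7 genes of TRH processing and breakdown, 1 was called, where 13% of all genes were. This was *Pgpep1*, a peptidase that takes the first residue off TRH, which was higher by 0.59 (SE 0.16, edgeR adjusted p = 0.0145). None of 3 pituitary and thyroid signal genes, 4 deiodination genes and 7 other T3-responsive genes passed. All 7 of the T3-responsive genes had values below 0, with a median of -0.48, but only 1 had an unadjusted p under 0.05, and *Nrgn* is also in the cortical marker list. In the other 7 comparisons 0 of these pathway genes passed, where 0% to 0.343% of all genes did.

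The values were not the same against sham and against saline, and neither was the number of all genes called. Against saline, where 0.00457% of all genes were called, RYGB had a log2 fold change of 0.35 for *Rxra* (SE 0.22, edgeR adjusted p = 0.9999). Sham vs. saline was at -0.82 for *Rxra*, which did not pass (edgeR adjusted p = 0.19). PYY3-36 + liraglutide vs. sham, with the same sham animals, was at 1.17 for *Rxra* (edgeR adjusted p = 0.00101), where 14.7% of all genes were called. Over all 65 libraries the median share of mitochondrial rRNA and tRNA was 1.82% in sham, 1.3% in saline, 0.860% in RYGB and 1.07% in PYY3-36 + liraglutide animals, and its part in these values was not tested. Without the 17 libraries, *Rxra* (1.27), *Ncoa2* (0.98), *Ncoa3* (0.65), *Pgpep1* (0.52) and *Hdac3* (-0.17) still passed in RYGB vs. sham, and *Rxrb* (-0.16, edgeR adjusted p = 0.106) did not. With all 65 libraries *Rxra* passed within both batches, *Ncoa2* and *Ncoa3* in batch B only (edgeR adjusted p = 0.0349 and 0.0330, against 0.0697 and 0.0749 in A) and *Hdac3* in batch A only, at -0.31 (edgeR adjusted p = 0.00968) against -0.04 in B (edgeR adjusted p = 0.854). *Rxrb* and *Pgpep1* passed within neither. The difference between the batches for *Hdac3*, 0.27 (SE 0.12), did not pass (edgeR adjusted p = 0.407).

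**Figure D5:**
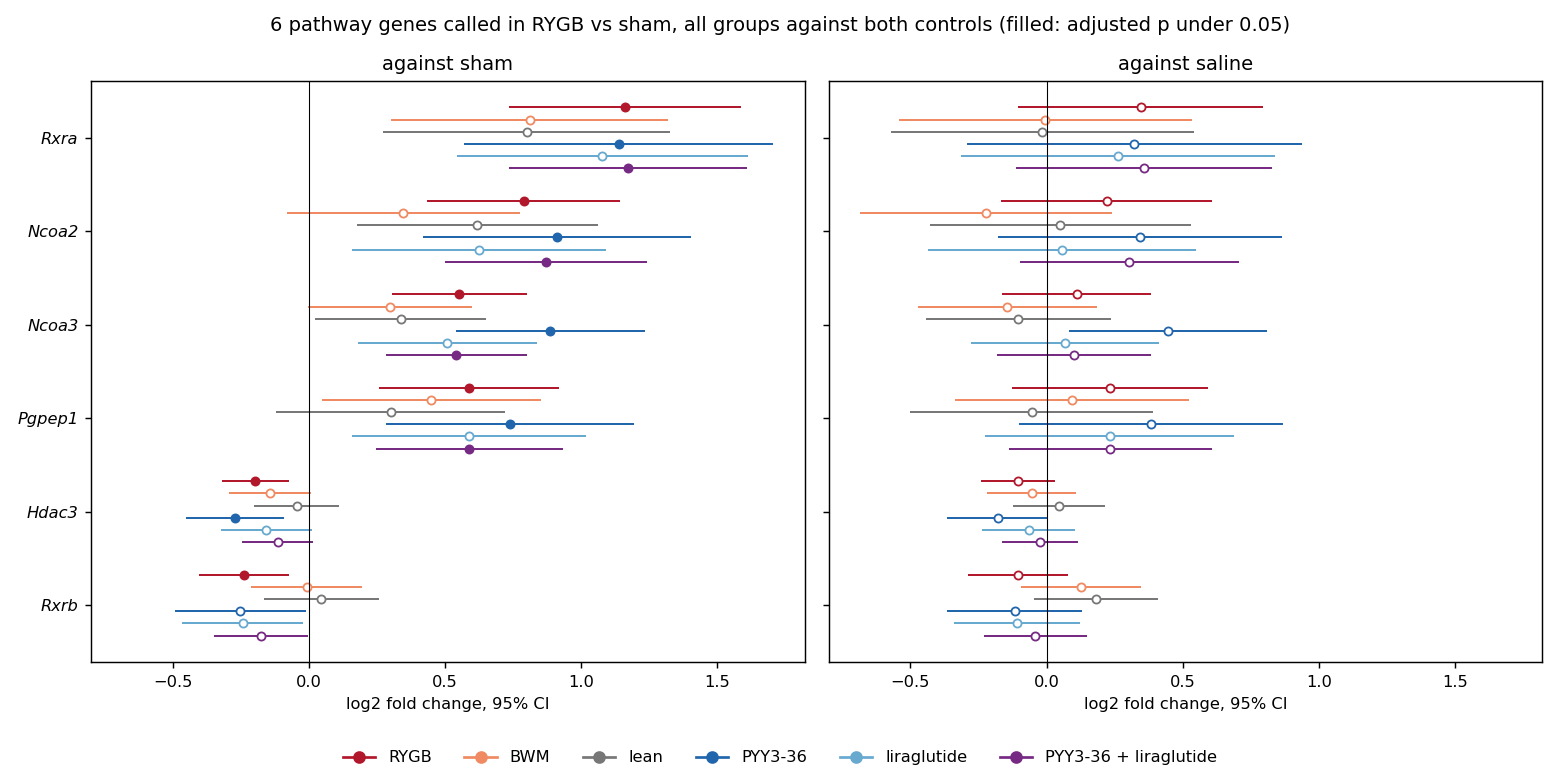
Log2 fold change (x axis, 95% CI) of the 6 named pathway genes (y axis) in 6 groups against sham (left) and against saline (right), from edgeR's model of 65 libraries, filled where the adjusted p is under 0.05. Rxra in RYGB is at 1.16 against sham and 0.35 against saline, and no filled point appears against saline.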

How the data were processed

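Total RNA of hypothalami was turned into stranded poly-A libraries and sequenced, 1 library per animal. The authors trimmed reads with cutadapt 1.16, mapped them with STAR 2.7.2b to Rnor_6.0 and counted them on exons of RefSeq genes, by strand, with featureCounts 1.6.4 (versions per the submitters' processing notes). The deposited values are estimated counts per gene: reads with several places or genes were counted as fractions, which left 30.3% of nonzero values not whole (tolerance 1e-06). Shares of *Klf9* and *Thrb* values were fractional too, in 24.6% and 13.8% of libraries. They were not normalized. Columns of other samples: 0.

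Group, batch and replicate came from the labels, and all 65 libraries were used. Values were rounded and 21871 of 38513 genes kept by filterByExpr (minimum count 10, minimum total 15). All libraries entered 1 robust quasi-likelihood model of edgeR 4.0.16 in R 4.3.3 with TMM factors and terms for group and batch. The study's groups were compared with sham or saline. A gene was called at a Benjamini-Hochberg adjusted p under 0.05 over all genes kept. Within-batch values came from a model with 12 means, 1 per group and batch. Replicates are animals. Error values are SD for CPM and SE for log2 fold changes.

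The 9 genes, the pathway lists and the marker lists were chosen with earlier results of these data known. All 9 are named, with the 3 genes most alike to each. Likeness is Pearson's r of log2(CPM + 1) after group and batch means were taken off, a description with no p. Of the pathway genes called, at most 3 of smallest p per list and direction are named. Results of some genes that these rules name are not reported here. The listed genes *Trhr2* and *Slco1a4*, were not analysed here. The 17 libraries left out and the within-batch settings were chosen after seeing the data. Alternatives were DESeq2 size factors, no filter, no batch term, a replicate block, DESeq2 1.42.0 with and without batch, the compared groups alone, the other control group, and each animal left out in turn. The code was tested on simulated data. Same-numbered animals of different groups had a median r of 0.020 between their deviations, so the numbers were not taken as pairs. Coordinates of genes are in Rnor_6.0 and sequences in GRCr8, with no conversion between them.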

Additional observations from a re-analysis of the deposited data

Results flagged for a closer look

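In groups of 4 to 10 animals of 1 batch, a value was singled out where its gap to the next animal was large for the range of its group (Dixon's criterion at 95%). This marked 9 of 81 sets of values, each of 1 gene in 1 group. The sets were not independent, because the genes were measured in the same animals. The criterion's rate of about 1 in 20 holds for normally distributed values, and these were CPM without a log. The 9 were therefore not compared with that rate. Of the 9 values, 7 came from the 17 libraries set apart by the marker ratio. BWM replicate 1 had 551 CPM of *Thra*, with the other 6 BWM animals at 255 to 369, and 109 CPM of *Klf9*, with the others at 12.7 to 49.1. Lean replicate 2 had 38.3 CPM of *Dio2*, with the others at 9.31 to 17.1, and 57.3 CPM of *Thrb*, with the others at 18.7 to 30.5. Sham replicate 6 had 34.8 CPM of *Dio2*, with the other 5 sham animals of batch B at 10.4 to 15.1. PYY3-36 replicate 2 had 78.1 CPM of *Hr*, with the others at 38.0 to 43.3, and 40.2 CPM of *Thrb*, with the others at 28.5 to 29.9.

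The other 2 values came from libraries outside those 17. BWM replicate 5, the library with 78079 CPM of anterior pituitary markers, had 75.3 CPM of *Thrb*, with the other 6 BWM animals at 17.1 to 27.5. PYY3-36 + liraglutide replicate 3 had 217 CPM of *Trh*, with the other 4 animals of batch A at 112 to 135.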

How the results depend on the processing

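The count of the 9 genes called was 1 in RYGB vs. sham, where 2853 of all 21871 tested genes were called. It became 0 without a filter on low counts (2221 of 33452 called) or with a replicate block (1529 of 23773). Within batch A (1903 of 22207), within batch B (605 of 22207) and against saline (1 of 21871) it was also 0. With DESeq2 on group only it was 2 (5856 of 33452), and it was 0 to 1 when animals were left out in turn. In BWM vs. sham it was 0, and became 1 with no batch term (2183 of 21871) or with DESeq2 on group only (3050 of 33452). It was 0 to 1 there when animals were left out. In PYY3-36 vs. saline it was 0, and became 1 against sham (1826 of 21871). It kept its value in the other 5 comparisons under all alternatives run. The call of *Thra* in RYGB vs. sham had an adjusted p of 0.0677 without the filter and 0.435 with the block (log2 fold change -0.20). The log2 fold change of *Trh* in RYGB vs. sham, which passed in neither fit, was 0.03 with 65 libraries and -0.38 without the 17. Counted over the alternatives, with *Thra* included, values of single genes lost a call 62 times and gained one 4 times. They stayed as they were, called or not called, 338 times. The causes were not tested.

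The number of all genes called in RYGB vs. sham was 2853, with 49.9% higher. It was 2221 with 62.1% higher without the filter, 5587 with no batch term, 1529 with a replicate block, 5856 with DESeq2 on group only, 1 against saline, 605 (76.4% higher) within batch B and 1470 to 4938 without single animals, lowest without sham replicate 5 and highest without RYGB replicate 11. Without the 17 libraries 60.9% of the calls were higher. In BWM vs. sham it was 70, and 2183 with no batch term, 2 with the block, 231 with DESeq2 on group and batch, 3050 on group only, 0 with the compared groups alone, 33 without the 17 libraries, 9 against saline, 1179 within batch A, and 5 (without BWM replicate 5) to 408 (without BWM replicate 1). In RYGB vs. BWM it was 75, and 1 with the block, 0 with the compared groups alone, 127 without the 17 libraries, 45 within batch A, and 2 (without BWM replicate 5) to 166 (without BWM replicate 4). In lean vs. sham it was 0, and 2339 with no batch term, 30 with DESeq2 on group and batch, 3474 on group only, 1 without the 17 libraries, 27 within batch A, and 0 to 1081 (without lean replicate 6). In PYY3-36 vs. saline it was 0, and 14 with DESeq2 on group and batch, 3 on group only, 1 with the compared groups alone, 1826 against sham, 1 within batch B and 0 to 2 (without PYY3-36 replicate 1). In liraglutide vs. saline it was 0, and 14 and 4 with DESeq2 with and without batch, 21 against sham and 2 within batch B. In PYY3-36 + liraglutide vs. saline it was 1, and 2 with no batch term, 0 with the block, 19 and 5 with DESeq2 with and without batch, 0 with the compared groups alone, 3220 against sham, 0 within batch A, 3 within batch B and 0 to 1 without single animals. In sham vs. saline it was 3, and 5 with no batch term, 0 with the block, 39 and 25 with DESeq2 with and without batch, 0 with the compared groups alone, 10 without the 17 libraries, 0 within batch A, 5 within batch B, and 1 (without sham replicate 8) to 186 (without sham replicate 1).

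Replicate numbers pair no animals, so the block only shows how the counts move: of 171 pairs of animals with the same number, 63 had deviations with an r over 0.1. Depth limits *Dio3*, with 0 to 79 counts per library, and the spread between animals limits *Trh*. BWM and lean animals were in batch A only and the single hormones in batch B only, so batch enters those comparisons through the groups present in both.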
